A study of Homo sapiens with 2 samples.

Results

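Keratins and the other intermediate filament genes were taken from an RNA-seq table of C4-2B, a human prostate cancer line of castration-resistant phenotype that descends from LNCaP. Members were the rows whose symbol is that of a keratin (KRT and a number), a neurofilament subunit or a nuclear lamin. Further members were the other cytoplasmic filament genes VIM, NES, DES, GFAP, INA, PRPH and SYNM, and the filament-binding plakins PLEC, EPPK1, DSP, EVPL, PPL and DST. The rule used names and no values, and it found 74 of the 25343 rows. C4-2B ENZR is the enzalutamide-resistant line, grown with 20 µM of this antiandrogen, and C4-2B Con is the enzalutamide-sensitive line, grown with DMSO in parallel. Both were kept in the same serum-supplemented medium, and each title carries the suffix shC, whose meaning no label gives. Each group was 1 library of 1 line (23479051 reads in genes for ENZR and 21024484 for Con), so the spread between cultures is unknown and no value has a test of the conditions. Resistance and the presence of the drug cannot be told apart in this pair.

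Intermediate filaments are rope-like polymers that give cells mechanical strength. Keratins polymerize only as pairs of a type I and a type II chain, and the pair KRT8 and KRT18 marks simple epithelia and the luminal cells of the prostate, whereas KRT5 and KRT14 mark its basal cells. Vimentin is the filament of mesenchymal cells, nestin of progenitor cells and neurofilaments of neurons, while lamins line the inside of the nuclear envelope in every cell type. Plakins are large filament-binding proteins, most of which link filaments to desmosomes, hemidesmosomes, actin or microtubules.

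The label of a prostate cancer line was checked against marker genes of luminal, basal and other cell types. All 7 luminal markers were measured, with sums of 2081 CPM in ENZR and 2337 CPM in Con, where CPM is the authors' TMM-normalized count per 1000000 reads. Of these 7, 6 were lower in ENZR and 2 of them by 2-fold or more, HPN and TRPM8, while FOLH1 was higher (24589 reads in ENZR and 14536 in Con, a CPM ratio of 1.40). Of 6 basal markers, TP63 had 0 reads in both libraries, and the list summed to 34.3 CPM in ENZR and 15.4 CPM in Con. Of the 5 basal markers that were measured, 3 (ITGB4, TRIM29 and LAMB3) were 2-fold or more higher in ENZR, or 1 with 5 CPM added in place of 1 CPM. TRIM29 (0.784 CPM in Con) and LAMB3 (0.196 CPM in Con) reached the mean of 1 CPM only through ENZR, where they were high. DSC3 was lower (26 reads in ENZR and 58 in Con, log2 ratio -0.91). Among all genes measured, 6.69% were higher and 4.64% lower by 2-fold or more, on the log2 scale with 1 CPM added. COL1A2 of the 6 fibroblast markers, CD3E of the leukocyte markers and CDH5 of the 4 endothelial markers also had 0 reads in both. The fibroblast list summed to 47.4 CPM in ENZR and 20.8 CPM in Con, of which COL1A1 alone made up 44.4 CPM in ENZR and 18.1 CPM in Con. LUM had 32 reads in ENZR and 0 in Con, COL3A1 0 reads in ENZR and 5 in Con, DCN 2 reads in ENZR and 0 in Con, and PDGFRB 41 reads in ENZR and 50 in Con. The leukocyte list summed to 5.30 CPM in ENZR and 3.43 CPM in Con, and the endothelial list to 5.22 CPM in ENZR and 10.7 CPM in Con.

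A mean of 1 CPM or more over both libraries, the level called measured here, was reached by 18 of the 74 members. They were KRT8, KRT18, KRT19, KRT10 and KRT80, the cytoplasmic filament genes VIM, SYNM, PRPH and NES, the 3 lamins, and all 6 plakins. By the log2 ratio of ENZR over Con with 1 CPM added to each value, 1 member (NES) was higher by 2-fold or more and 2 (EPPK1 and PPL) were lower by 2-fold or more. The same limits were passed by 6.69% (higher) and 4.64% (lower) of the 13803 genes measured in all, so the members' counts are close to the background. In bulk RNA, fewer cells with a transcript and less of it per cell cannot be told apart. The median log2 ratio was -0.29 over the 18 members and -0.01 over all measured genes. With 7 members above 0 and 11 below, against 49.5% of all measured genes above 0, the members differed in both directions.

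**Figure D1:**
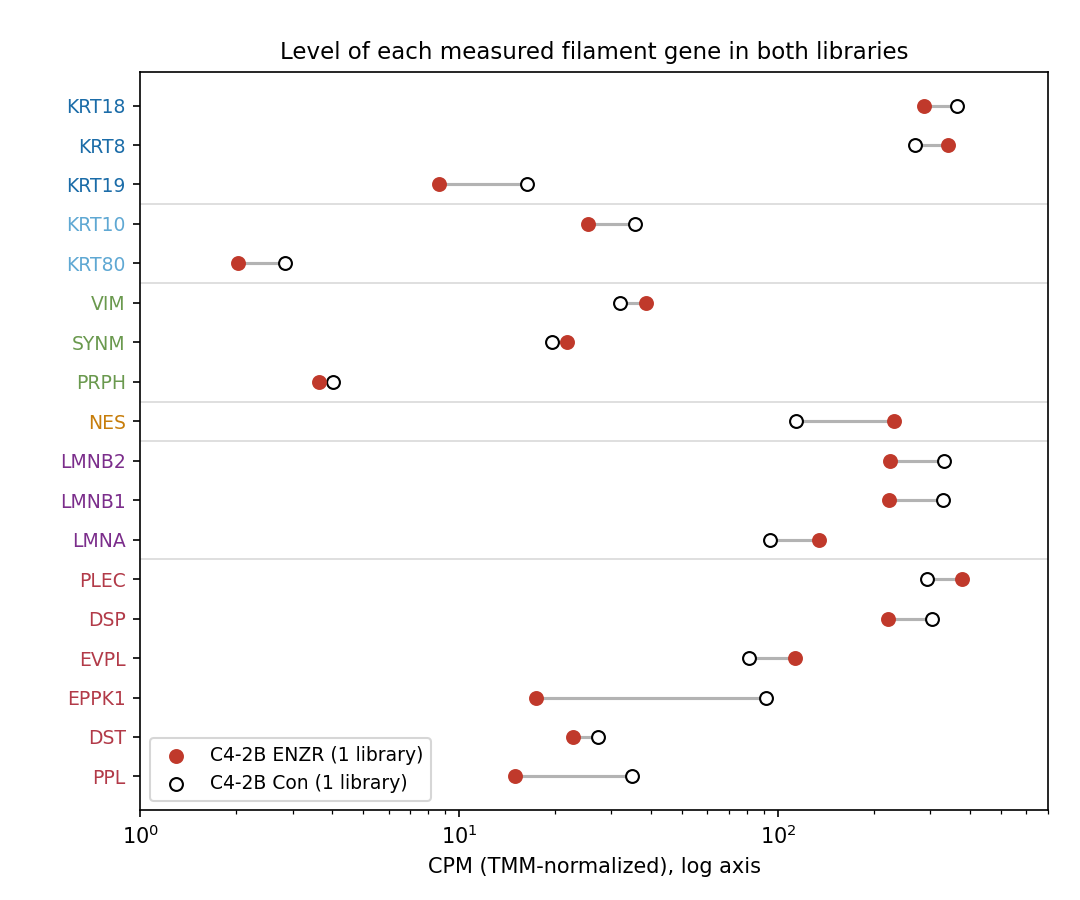
Level of the 18 measured members in CPM on a log axis, with ENZR as filled points and Con as open points (1 library each); label colours mark the role groups. EPPK1 shows the widest gap (17.4 CPM in ENZR and 91.7 CPM in Con), and KRT8 and KRT18 lie on opposite sides of their Con values.

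KRT8 and KRT18, the type II and type I chains of the luminal filament, dominated the keratins in both libraries. KRT8 had 340 CPM in ENZR and 268 CPM in Con, a plain CPM ratio of 1.27. The exact 95% interval of that ratio, called the counting interval below because it covers counting error only, was 1.23 to 1.31. KRT18 had 287 CPM in ENZR and 363 CPM in Con, a ratio of 0.791 (counting interval 0.765 to 0.817). The partners thus differed in opposite directions, each by less than 2-fold, and their sum was 627 CPM in ENZR and 631 CPM in Con, a ratio of 0.994 (0.971 to 1.02). Of all reads in genes, without TMM scaling, they held 0.0660% in ENZR (0.0650 to 0.0671) and 0.0613% in Con (0.0602 to 0.0623). The near-equal sum of the partners thus depended on the scaling. Together they made up 94.4% of all keratin CPM in ENZR and 91.8% in Con. Both genes lie side by side on chromosome 12, where KRT18 is the type I gene that sits beside the type II cluster.

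A ratio of reads within a library does not depend on how the libraries are scaled. KRT8 reads over KRT18 reads stood at 1.19 (1.15 to 1.22) in ENZR and 0.738 (0.713 to 0.765) in Con, so the ratio was 1.61 times higher in ENZR (exact counting interval 1.53 to 1.68). Per 1000 bases of transcript, the level of KRT8 was 202 CPM in ENZR and 159 CPM in Con, and that of KRT18 was 184 CPM in ENZR and 232 CPM in Con. On this scale KRT8 was the more abundant partner in ENZR, and KRT18 the more abundant in Con. Over whole families, the 28 type I keratins summed to 321 CPM in ENZR and 415 CPM in Con, a ratio of 0.774 (0.75 to 0.798). The 26 type II keratins summed to 343 CPM in ENZR and 272 CPM in Con, a ratio of 1.26 (1.22 to 1.30), almost all of it from KRT8: without KRT8 they summed to 2.87 CPM in ENZR and 4.36 CPM in Con.

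**Figure D2:**
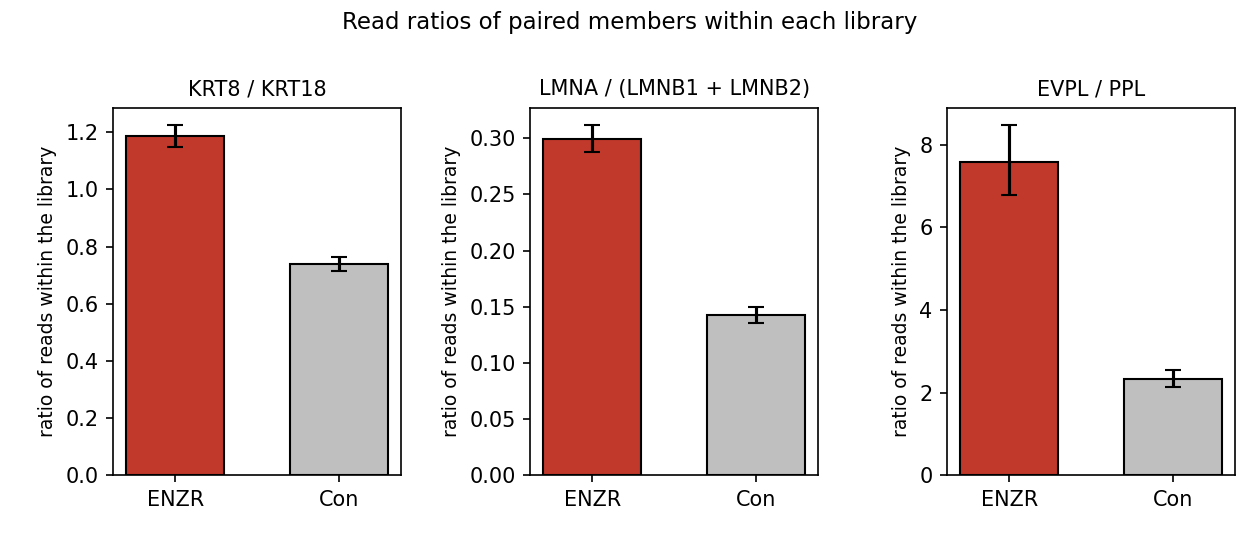
Ratio of reads of paired members within each library, with bars from 0 and exact 95% counting intervals; ENZR is the left bar and Con the right bar of each panel. Each of the 3 ratios is higher in ENZR, at 1.19 against 0.738 for KRT8 over KRT18, 0.299 against 0.143 for LMNA over the B-type lamins, and 7.57 against 2.32 for EVPL over PPL.

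The values of KRT8 and KRT18 rest in part on reads that fit other genes. Libraries were read as single 50-base reads, and of the 50-base words in the KRT8 transcript, 41.3% also occur in a transcript of another GENCODE gene. These words were spread over 36 other genes, 34 of them pseudogenes. For KRT18 the share was 31.8%, over 43 other genes, all of them pseudogenes. How the counting divided such reads was not tested, and KRT19, KRT80, the lamins, VIM, NES and all plakins had shares under 3%. The word of KRT18 below is shown because it is, among its words within 1 exon, the one found in the most other genes, 5 in all. It lies in a coding exon at chr12:52949383-52949432 on the plus strand (GRCh38, GENCODE transcripts).
KRT18: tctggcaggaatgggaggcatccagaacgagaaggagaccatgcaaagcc

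**Figure D3:**
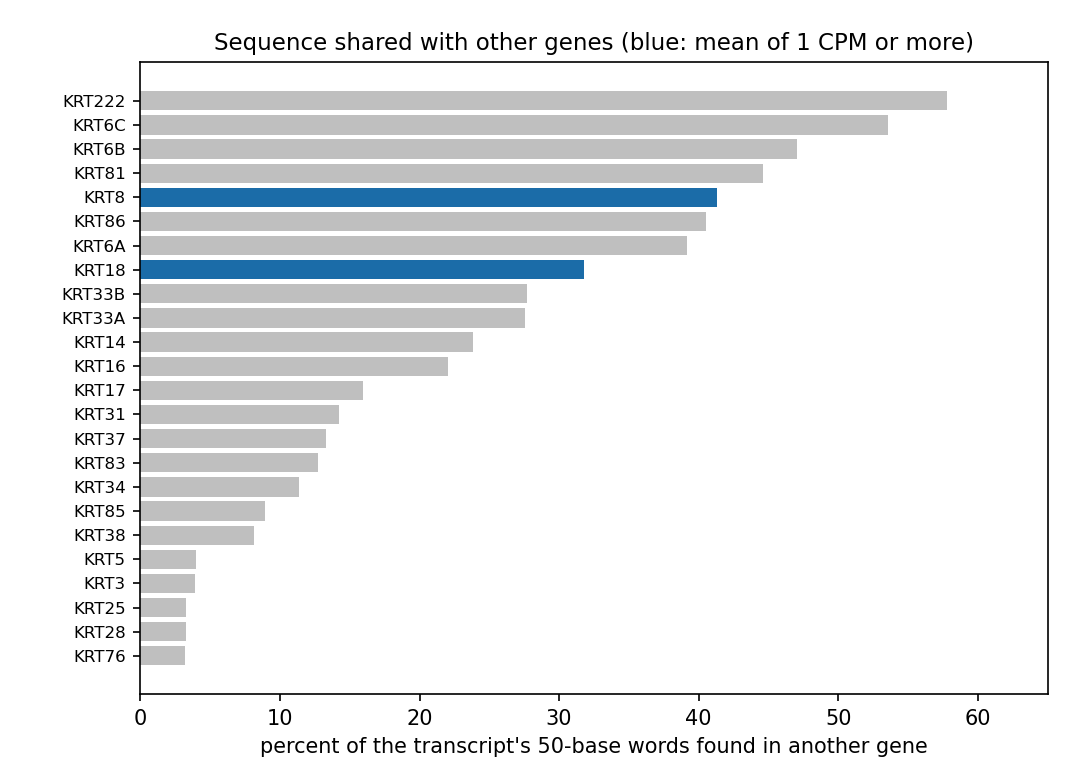
Percent of each member's 50-base transcript words that also occur in another GENCODE gene, for the members at or above 3%. Blue bars are members with a mean of 1 CPM or more, of which only KRT8 (41.3%) and KRT18 (31.8%) reach that share.

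KRT19, a type I keratin of simple epithelia that can pair with KRT8, had 8.65 CPM in ENZR and 16.4 CPM in Con, 1.89-fold lower in ENZR (counting interval 1.59 to 2.26). Its log2 ratio with 1 CPM added was -0.85, short of 2-fold. Relative to KRT18, KRT19 reads stood at 0.0302 in ENZR and 0.0451 in Con. KRT10, a suprabasal keratin of skin, had 25.4 CPM in ENZR and 35.5 CPM in Con, 1.40-fold lower (1.26 to 1.56). KRT80, a type II keratin of differentiating epithelia, was near the lower limit with 50 reads in ENZR and 58 in Con, and its counting interval held 1. All 3 measured type I keratins were thus lower in ENZR, each by less than 2-fold. Among all measured genes, 49.5% had a log2 ratio above 0 and 36.6% a counting interval below 1, so a count of 3 says little.

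The remaining 50 of the 55 keratin rows were under 1 CPM, and 38 of them had 0 reads in both libraries. KRT5, the basal type II keratin, had 0 reads in both, which allows a level of up to 0.121 CPM in ENZR and 0.147 CPM in Con (3 counts). Its partner KRT14 had 1 read in ENZR and 8 in Con, KRT2 1 read in ENZR and 9 in Con, and KRT73 0 reads in ENZR and 8 in Con. The counting intervals of these 3 ratios lay below 1. In the other direction, KRT75 had 6 reads in ENZR, KRT17 3 and KRT15 2. Each of them had 0 reads in Con and a counting interval that held 1. KRT7 of simple ductal epithelia had 1 read in ENZR and 0 in Con, and KRT20, the intestinal and urothelial keratin, had 0 in both. The 26 hair and root sheath keratins had 7 reads in ENZR and 12 in Con in all. KRT6C was the only keratin under 1 CPM with 10 or more reads, at 13 reads in ENZR and 11 in Con, while KRT6A had 0 reads in ENZR and 1 in Con and KRT6B 0 in both.

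KRT6A, KRT6B and KRT6C are near-identical stress keratins, and 53.6% of the 50-base words of KRT6C occur in another gene, and 44.6% occur in KRT6B. The 50-base stretch below shows bases at which they differ. Because its ends had to match, it is not a measure of how alike the genes are. It is the window within 1 coding exon, matched between the genes by the same first 20 and last 10 bases, in which KRT6C is most unlike both others. Capitals mark the 3 positions at which the genes differ, of which 1 sets KRT6C apart from KRT6A and 3 from KRT6B. The stretches lie on the minus strand of chromosome 12 (GRCh38), at chr12:52469166-52469215 for KRT6C, chr12:52487824-52487873 for KRT6A and chr12:52447294-52447343 for KRT6B. The split of reads among these genes is uncertain.
KRT6C: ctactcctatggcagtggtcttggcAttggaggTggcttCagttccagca
KRT6A: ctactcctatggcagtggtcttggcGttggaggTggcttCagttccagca
KRT6B: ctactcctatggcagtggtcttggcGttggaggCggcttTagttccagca

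NES, which encodes nestin, had 232 CPM in ENZR and 114 CPM in Con, a ratio of 2.03 (counting interval 1.94 to 2.13). It was the only member at least 2-fold higher, and it stood just inside that limit at a log2 ratio of 1.02; with 5 CPM added in place of 1 CPM the log2 ratio was 0.99. Among the 13803 measured genes, 900 had a higher log2 ratio. Of the 10 measured genes nearest to NES, 9 were also above 0, with a median log2 ratio of 0.23, and 1 was 2-fold or more higher. For LMNA, on the same chromosome, the 10 nearest had a median of -0.01 and 1 was 2-fold or more higher, and around KRT8 and KRT18 the medians were -0.10 and -0.05. The neurofilament genes and INA, the neuronal filaments proper, were under a mean of 1 CPM over both libraries. NEFL had 10 reads (0.404 CPM) in ENZR and 26 reads (1.27 CPM) in Con, 3.15-fold lower in ENZR (counting interval 1.47 to 7.32). NEFM had 0 reads in ENZR and 2 in Con, NEFH 2 in ENZR and 3 in Con, and INA 0 in both. Of NES, INA and the neurofilament genes, NES alone was therefore measured. PRPH, also a filament gene of neurons, was measured too but was grouped with VIM.

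VIM, vimentin, had 38.5 CPM in ENZR and 31.8 CPM in Con, a ratio of 1.21 (1.09 to 1.34). Per 1000 bases of transcript, VIM stood at 20.6 CPM in ENZR and 17.0 CPM in Con, far under KRT8 and KRT18 on the same scale. Of the 6 fibroblast markers, COL1A1 (ratio 2.45) and LUM were also higher in ENZR, COL3A1 was lower, the counting intervals of PDGFRB and DCN held 1, and COL1A2 was at 0 reads in both libraries. Their summed level was 47.4 CPM in ENZR and 20.8 CPM in Con, and the part of such expression in the VIM difference was not tested. SYNM, synemin, which joins vimentin or desmin filaments, had 21.7 CPM in ENZR and 19.5 CPM in Con. PRPH, the peripherin of peripheral neurons, had 3.64 CPM in ENZR and 4.02 CPM in Con. The counting intervals of both SYNM and PRPH held 1. DES and GFAP, the filaments of muscle and glia, had 1 read each in ENZR and 0 in Con.

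The lamins divided by type. LMNA, whose transcripts give lamins A and C, had 134 CPM in ENZR and 94.2 CPM in Con, a ratio of 1.42 (1.34 to 1.5). LMNB1 had 222 CPM in ENZR and 328 CPM in Con, 1.48-fold lower (1.42 to 1.53). LMNB2, on another chromosome, had 225 CPM in ENZR and 332 CPM in Con, 1.48-fold lower (1.43 to 1.53). The B-type genes kept their proportion to each other: LMNB1 reads over LMNB2 reads stood at 0.989 in ENZR and 0.988 in Con.

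Within a library, LMNA reads over the reads of both B-type lamins stood at 0.299 (0.288 to 0.311) in ENZR and 0.143 (0.136 to 0.15) in Con. This A-to-B ratio was 2.1 times higher in ENZR (exact counting interval 1.97 to 2.23), although no single lamin gene reached 2-fold. In both libraries the B-type genes together still outnumbered LMNA in reads. Per 1000 bases of transcript, the level of LMNA was 42 CPM in ENZR and 29.5 CPM in Con, that of LMNB1 77.3 CPM in ENZR and 114 CPM in Con, and that of LMNB2 48.1 CPM in ENZR and 71.2 CPM in Con. The order LMNB1, LMNB2, LMNA held in both, with LMNA nearer to LMNB2 in ENZR.

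Among the plakins, EPPK1, epiplakin, which binds keratin filaments, had the largest difference among the 18 measured members. It had 17.4 CPM in ENZR and 91.7 CPM in Con, 5.26-fold lower in ENZR (counting interval 4.73 to 5.85), and 115 of the 13803 measured genes had a lower log2 ratio. PLEC, plectin, the neighbour of EPPK1 on chromosome 8, had 378 CPM in ENZR and 294 CPM in Con, a ratio of 1.29 (1.25 to 1.33). PLEC reads over EPPK1 reads therefore stood at 21.7 in ENZR and 3.20 in Con. Per 1000 bases of transcript, the level of EPPK1 was 1.09 CPM in ENZR and 5.73 CPM in Con, and that of PLEC 24.8 CPM in ENZR and 19.2 CPM in Con. Of the 10 measured genes nearest to EPPK1 in gene order, 5 on each side, 9 were below 0 with a median log2 ratio of -0.36. The exception was PLEC, and 1 of the 10 was at least 2-fold lower, PARP10, an ADP-ribosyltransferase gene on the other side of PLEC, at 3.64 CPM in ENZR and 85.9 CPM in Con. PARP10 was named after its values were seen.

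PPL, periplakin, had 14.96 CPM in ENZR and 34.9 CPM in Con, 2.33-fold lower (2.05 to 2.65). Like NES, it stood near the 2-fold limit: its log2 ratio was -1.17 with 1 CPM added and -0.998 with 5 CPM added. EVPL, envoplakin, its partner in the cornified envelope of skin, had 113 CPM in ENZR and 81.0 CPM in Con, a ratio of 1.40 (1.31 to 1.49). As with KRT8 and KRT18, the members of this known pair differed in opposite directions, and EVPL reads over PPL reads were 3.26 times higher in ENZR (2.83 to 3.76). The 10 measured genes nearest to PPL had log2 ratios of -0.44 to 0.28, so none was as low as PPL.

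DSP, desmoplakin, which anchors keratins to desmosomes, had 221 CPM in ENZR and 304 CPM in Con, 1.38-fold lower (1.33 to 1.43). DST, dystonin, whose epithelial isoform anchors keratins to hemidesmosomes, had 22.8 CPM in ENZR and 27.1 CPM in Con, 1.19-fold lower (1.06 to 1.34), and the table does not separate its isoforms. Of the 6 plakins, 2 had counting intervals above 1 and 4 below 1. Over all 18 measured members the intervals lay above 1 for 6, below 1 for 9 and held 1 for 3. Among all measured genes, 34.6% lay above 1 and 36.6% below 1. These counts hold for the TMM scaling only, as the intervals were not recalculated under other scalings.

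**Figure D4:**
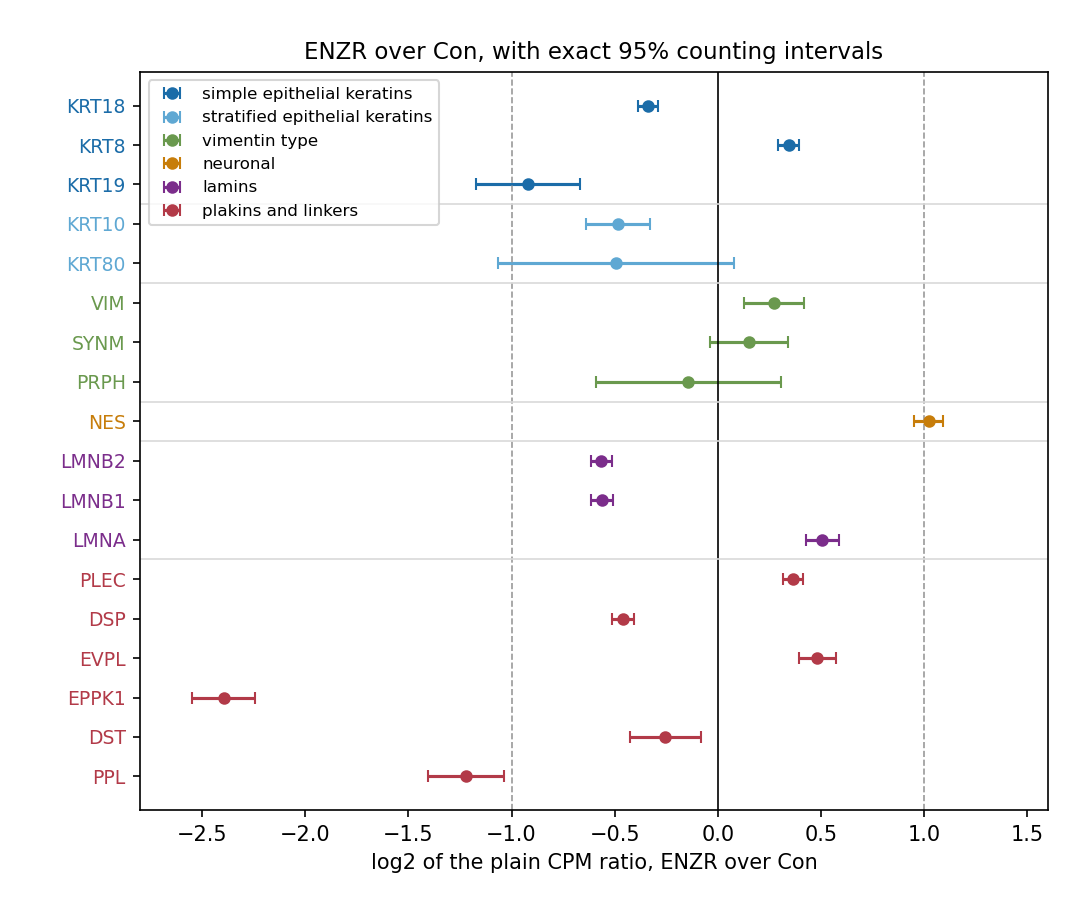
Log2 of the plain CPM ratio of ENZR over Con for the 18 measured members, with exact 95% counting intervals, coloured by role group; dashed lines mark 2-fold. EPPK1 and PPL lie wholly left of the lower line, NES straddles the upper line, and KRT8 and KRT18 lie on opposite sides of 0.

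Genes that work with these filaments were counted from 6 lists with 74 distinct genes, of which 47 were measured. Of these, 4 were higher and 4 lower by 2-fold or more (6.69% and 4.64% of all measured genes). Of 13 measured genes of desmosomes and keratin anchoring, 0 were higher and 1 lower by 2-fold or more, the desmocollin DSC1 (1.5 CPM in ENZR and 6.76 CPM in Con). The junction protein JUP, plakoglobin, stood at 545 CPM in ENZR and 574 CPM in Con. DSG2 of the same list was 1.80-fold lower (346 CPM in ENZR and 624 CPM in Con). All 16 genes of the list summed to 1662 CPM in ENZR and 2076 CPM in Con, a ratio of 0.801 (0.790 to 0.812). Of the 13 measured, counting intervals lay below 1 for 6, above 1 for 2 and held 1 for 5. Among all measured genes, 36.6% lay below 1 and 34.6% above 1. Of 5 measured hemidesmosome genes, ITGB4, the integrin that binds plectin, was 2.58-fold higher (24.6 CPM in ENZR and 9.55 CPM in Con). LAMB3 had 54 reads in ENZR and 4 in Con, and reached the mean of 1 CPM only through ENZR. LAMA3, a laminin chain of the same complex, was 5.74-fold lower (34.5 CPM in ENZR and 198 CPM in Con).

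All 16 genes of the lamina list were measured, with 1 higher and 1 lower by 2-fold or more and a median log2 ratio of -0.21. LBR, the lamin B receptor, which tethers heterochromatin and B-type lamins to the inner nuclear membrane, had 79.3 CPM in ENZR and 222 CPM in Con, 2.80-fold lower (2.66 to 2.96). SYNE1, a nesprin of the outer nuclear membrane, had 152 reads in ENZR and 31 in Con. Of 13 cornified envelope genes, 2 were measured. CSTA, the protease inhibitor cystatin A, had 0.485 CPM in ENZR and 28.2 CPM in Con, 58.2-fold lower (33.0 to 113). It reached the mean of 1 CPM only through Con, where it was high. IVL, involucrin, under the limit for measured genes, had 27 reads in ENZR and 0 in Con. CDSN of the same list, also under that limit, had 3 reads in ENZR and 21 in Con. Of genes under it in the other lists, PKP1 had 1 read in ENZR and 28 in Con and DSG1 6 and 21. BFSP1 went the other way, with 22 reads in ENZR and 4 in Con. Of 9 measured epithelial transcription factors, 0 were lower and 1 higher by 2-fold or more, ELF3 (50.3 CPM in ENZR and 16.2 CPM in Con). By direction alone, 6 of the 9 were below 0 and 3 above, with counting intervals below 1 for 4 and above 1 for 2. The list of 15 summed to 876 CPM in ENZR and 1309 CPM in Con, most of it EHF (577 CPM in ENZR and 1033 CPM in Con). The last list, of filament and plakin genes outside the rule, had 2 measured genes and 0 past 2-fold; MACF1, the plakin closest to dystonin, had 126 CPM in ENZR and 78.6 CPM in Con.

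**Figure D5:**
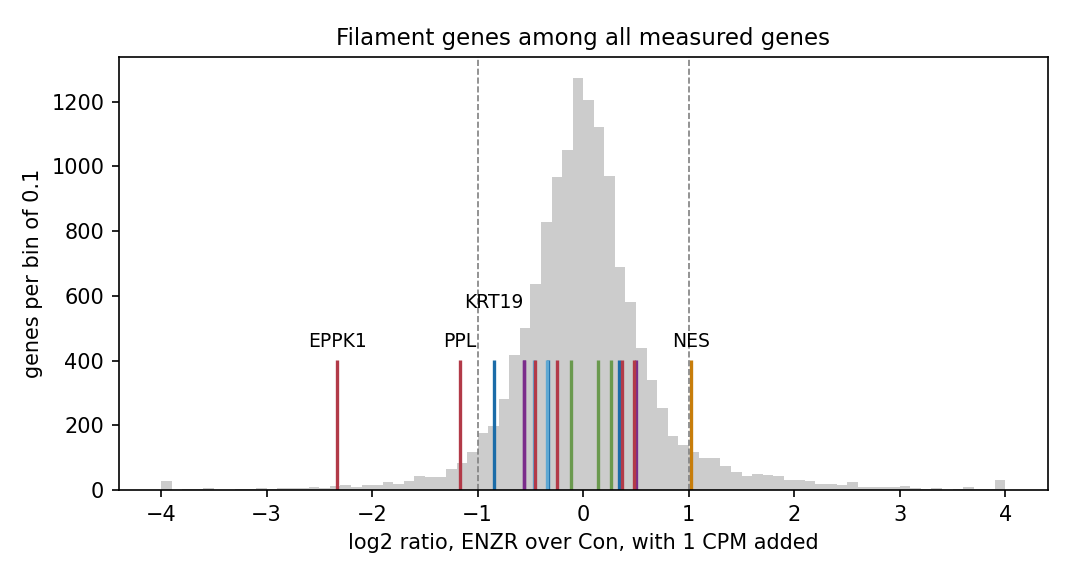
Histogram of the log2 ratio of ENZR over Con, with 1 CPM added, for the 13803 measured genes (values beyond 4 in either direction are drawn at 4), with a coloured line at each of the 18 measured members and dashed lines at 2-fold. Most members lie within 2-fold, and EPPK1 at -2.33, PPL at -1.17 and NES at 1.02 lie outside it.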

How the data were processed

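The deposited table gives 1 signal value per gene and library, named as TMM-normalized reads per 1000000, for 25343 rows; it held 0 further columns of sample values. Per the submitters' processing notes, Bowtie2 2.1.0, RSEM 1.2.15, edgeR and build hg19 were used, with no roles given. The gene annotation and the strandedness of the counting were not given in the sources used here. All values in a column (100% of those above 0, within 0.01 reads) were whole multiples of 1 step, 0.0404 CPM in ENZR and 0.0490 CPM in Con, so whole reads were recovered; they may be rounded estimates. A count test (edgeR) could not be fitted to 1 library against 1, which leaves no residual degrees of freedom, so it was not run and no p-value is given. Reads were turned into exact 95% Clopper-Pearson intervals of CPM ratios, and into exact conditional intervals for ratios of within-library ratios (scipy 1.17.1). Floors are 3 counts. Intervals and floors cover counting error only. The calculation was tested on simulated data.

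The members and lists were chosen with earlier results of these data known. Every member with a mean of 1 CPM or more is named, and from each list of partner genes up to 2 past 2-fold in each direction. JUP, DSG2, DSG1, PKP1, CDSN, BFSP1, EHF, MACF1, IVL and PARP10, and the keratins KRT2, KRT73, KRT75, KRT17 and KRT15, were added after their values were seen. Within-library ratios, shared 50-base words (forward strand, 1 transcript per gene, GENCODE v29), lengths of the transcript with the longest coding sequence and gene order (RefSeq, GRCh38.p14) were also chosen after the values were seen. All 74 symbols matched the RefSeq and GENCODE tables. Protein sequences were not used here, and some items are not reported here.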

Additional observations from a re-analysis of the deposited data

Results flagged for a closer look

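Keratin pseudogene rows lie outside the rule and the comparisons, and 3 of the 7 such rows had more reads than the floor of 3 counts. KRT42P had 34 reads in ENZR and 8 in Con, 3.51-fold higher in ENZR (counting interval 1.59 to 8.77). KRT18P55 had 11 reads in ENZR and 3 in Con, and KRT8P41 had 6 reads in ENZR and 5 in Con, with counting intervals that held 1.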

How the results depend on the processing

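All 18 measured members kept their direction under each of the 7 other settings in which they were measured (16 with a mean of 5 CPM or more). With 5 CPM added, 0 members were at least 2-fold higher and 1, EPPK1, was at least 2-fold lower, since NES moved to 0.99 and PPL to -0.998. Undoing the TMM scaling moved the median log2 ratio of all genes to 0.10. The sizes of the members' differences depended on the scaling. Without TMM, 9 of the 18 members had a log2 ratio outside their reported counting interval, and by the upper quartile 6 did. Leaving the 10 most abundant genes out of the totals again gave 9. Without TMM, DST moved from -0.24 to -0.13 and SYNM from 0.14 to 0.26. The median of the measured members, -0.29 as reported, was -0.18 without TMM and when the totals left out the 10 most abundant genes, -0.19 with 5 CPM added and -0.09 with no filter. The log2 ratio of the summed type I keratins was -0.37 as reported, -0.25 without TMM, -0.32 by the upper quartile and -0.25 when the totals left out the 10 most abundant genes. For the type II keratins these values were 0.33, 0.45, 0.39 and 0.45. Of 154 counts of list genes past 2-fold under the other settings, 14 differed by more than 1.5 times or between 0 and 1 or more. No paired analysis was possible because each group has 1 library, and no library could be left out for the same reason. Depth limits statements on the 56 members under 1 CPM.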
